A study of Mus musculus with 8 samples.

Results

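A set of 10 genes with established roles in human neuroblastoma was followed in the superior cervical ganglia of newborn mice: Mycn, Alk, Lin28a, Lin28b, Lmo1, Bard1, Atrx, Chd5, Camta1 and Casz1. They were taken by symbol from the 23827 rows of the deposited count table, each stood on 1 row, and all 10 passed the filter on low counts, among 14592 tested genes in all. The list was drawn from knowledge of the tumour and not from values in these libraries, although earlier results of the same data were known. Polyadenylated RNA was sequenced from the ganglion pair of each animal at post natal day 1, in the C57Bl6/n strain. The 4 cKO animals had the genotype KIF1Bb fl/fl with DBHcre +/-, and the 4 WT animals were KIF1Bb fl/fl with DBHcre -/-. The allele flanked by loxP sites was therefore present in both groups, and WT names animals without Cre. Cre driven by the Dbh promoter acts in noradrenergic cells, while a ganglion also holds glia, vessels and connective tissue, whose RNA is in the same library.

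Neuroblastoma is a childhood tumour of the sympathetic lineage, the lineage that forms these ganglia. MYCN is a transcription factor of the MYC family that is amplified in aggressive tumours, and ALK is a receptor tyrosine kinase that carries activating mutations. LIN28A and LIN28B bind the precursors of let-7 microRNAs and block their maturation. LMO1 is a transcriptional cofactor, BARD1 the partner of BRCA1, and ATRX a chromatin remodeller, and all 3 genes carry risk variants or mutations in patients. CHD5, CAMTA1 and CASZ1 lie in the human chromosome region 1p36, which is often deleted in the tumours and also holds KIF1B.

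The targeted gene was checked first. Kif1b had 302, 191, 299.7 and 246 CPM (read counts scaled to a common library size) in cKO replicates 1 to 4, against 1454, 1319.8, 933 and 1191 CPM in WT replicates 1 to 4. The log2 fold change was -2.24 (SE 0.18), with an adjusted p of 3.43e-04 in the quasi-likelihood test of edgeR, and the groups were far apart. Total counts lay between 16214912 and 18114418 per library. The 20 noradrenergic neuron markers were all tested and summed to between 24881 and 28282 CPM in cKO libraries and between 29182 and 31681 CPM in WT libraries. Across all tested genes, 397 (2.72%) passed an adjusted p below 0.05, and the libraries of the groups did not overlap in 11.0%. With 1 library left out, 74 genes passed without WT 4, 79 without WT 2, 249 without WT 3, 137 without cKO 3 and 147 without cKO 2. Samples are separate animals per the labels' protocols, and a bulk library cannot tell fewer cells of a type from less RNA per cell.

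Lin28b, 1 of the 10 genes, passed the test, and it was lower in cKO ganglia at 0.587 of its WT level. The other 9 did not pass, and the 95% intervals of 8 of them included 0. The members' median log2 fold change was -0.11, against -0.000618 over all tested genes. Of the 10 genes 1 fell and 0 rose, beside a background of 1.12% of tested genes called lower and 1.60% called higher in cKO ganglia. The groups were apart in 1 of the 10, which was lower in cKO, beside 5.02% of all tested genes in that direction. A single gene of 10 is too few to set against these shares.

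Because LIN28B acts on let-7, the let-7 sequences and their matches in the LIN28 genes are shown here. In the RefSeq table for GRCm38.p6, 11 mature microRNA names share bases 2 to 8, the seed through which a microRNA pairs with its targets. Of these, 4 that differ outside the seed are printed 5′ to 3′ with the seed in capitals.
mmu-let-7a-5p: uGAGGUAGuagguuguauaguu
mmu-let-7d-5p: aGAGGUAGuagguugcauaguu
mmu-let-7g-5p: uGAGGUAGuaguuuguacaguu
mmu-miR-98-5p: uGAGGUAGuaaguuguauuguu

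The reverse complement of this seed, CTACCTC, was searched on the sense strand of the annotated 3′ UTR of each gene (GENCODE vM21, GRCm38, the assembly also called mm10). It occurred 4 times in the 4445 bases of Lin28b and 2 times in the 2775 bases of Lin28a. It occurred in none of the other 8 genes, whose searched UTRs were between 299 bases (Lmo1) and 3326 bases (Chd5). The sites are printed with the match in capitals, each after its position, and all lie on the minus strand.
Lin28b site at chr10:45381022-45381044: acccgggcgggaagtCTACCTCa
Lin28b site at chr10:45378648-45378670: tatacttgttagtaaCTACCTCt
Lin28b site at chr10:45378476-45378498: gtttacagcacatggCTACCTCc
Lin28b site at chr10:45377060-45377082: aaatgatggcaccgaCTACCTCt
Lin28a site at chr4:134005189-134005211: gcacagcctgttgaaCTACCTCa
Lin28a site at chr4:134004551-134004573: gagatcgccacaaacCTACCTCa

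At least 1 such match was present in 9.6% of 13046 tested genes with an annotated 3′ UTR. A match describes letters in the annotated transcript and is no measurement of binding. The first Lin28b site and both Lin28a sites are followed by an A, which makes an 8-base match, found in 3.3% of these genes.

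The LIN28 genes had the lowest levels per exon length among the oncogenes. Lin28b (chromosome 10, 45376620 to 45486395, minus strand) had 14.1, 10.9, 13.5 and 13.2 CPM in cKO replicates 1 to 4, against 27.7, 21.8, 16.6 and 21.8 CPM in WT replicates 1 to 4. Every cKO library lay below every WT library, with the smallest gap between cKO 1 and WT 3. Lin28b averaged 12.9 ± 1.40 CPM in cKO ganglia and 22.0 ± 4.56 CPM in WT ganglia (SD, n = 4 each). The log2 fold change was -0.77 (SE 0.16, 95% interval -1.13 to -0.41, edgeR adjusted p = 0.0358), which puts the cKO level at 0.587 of the WT level. An exact permutation test over all 70 assignments gave a two-sided p of 0.0286, the lowest it can reach.

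The Lin28b call depended on single libraries. It was lost without WT 2 (log2 fold change -0.77, edgeR adjusted p = 0.114), WT 4 (-0.77, 0.112), cKO 2 (-0.70, 0.101), cKO 3 (-0.79, 0.0851) or cKO 4 (-0.78, 0.0641), while the log2 fold change stayed between -0.89 and -0.64 with 1 library left out. The summed noradrenergic markers were lower in every cKO than in every WT library, and the median log2 fold change of the 20 genes was -0.16, though none passed alone. Per 1000 CPM of their sum, a scaling chosen after the data were seen, Lin28b had 0.565, 0.400, 0.497 and 0.465 CPM in cKO libraries, against 0.919, 0.747, 0.522 and 0.696 CPM in WT libraries. On that scale cKO 1 lay above WT 3, the log2 difference was -0.56, and the exact permutation test gave a two-sided p of 0.0571. The part of a change in cell makeup in the fall of Lin28b was not tested.

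Its relative Lin28a (chromosome 4, 134003330 to 134018841, minus strand) stood at percentile 12.8 of the tested genes by level per exon length in WT ganglia. It had 2.91, 2.33, 3.07 and 2.16 CPM in cKO libraries, against 3.13, 3.45, 2.41 and 2.80 CPM in WT libraries, from 39 to 55 counts per library. The groups overlapped, and the log2 fold change was -0.17 (SE 0.20, 95% interval -0.60 to 0.27, edgeR adjusted p = 0.761). The interval leaves room for a level between 0.658 and 1.20 times that of WT ganglia. A noncoding gene on the opposite strand, Gm13061, shares 234 exon bases with Lin28a, and reads of the 2 genes may not be separable, since the strand setting of the counting is unknown.

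**Figure D1:**
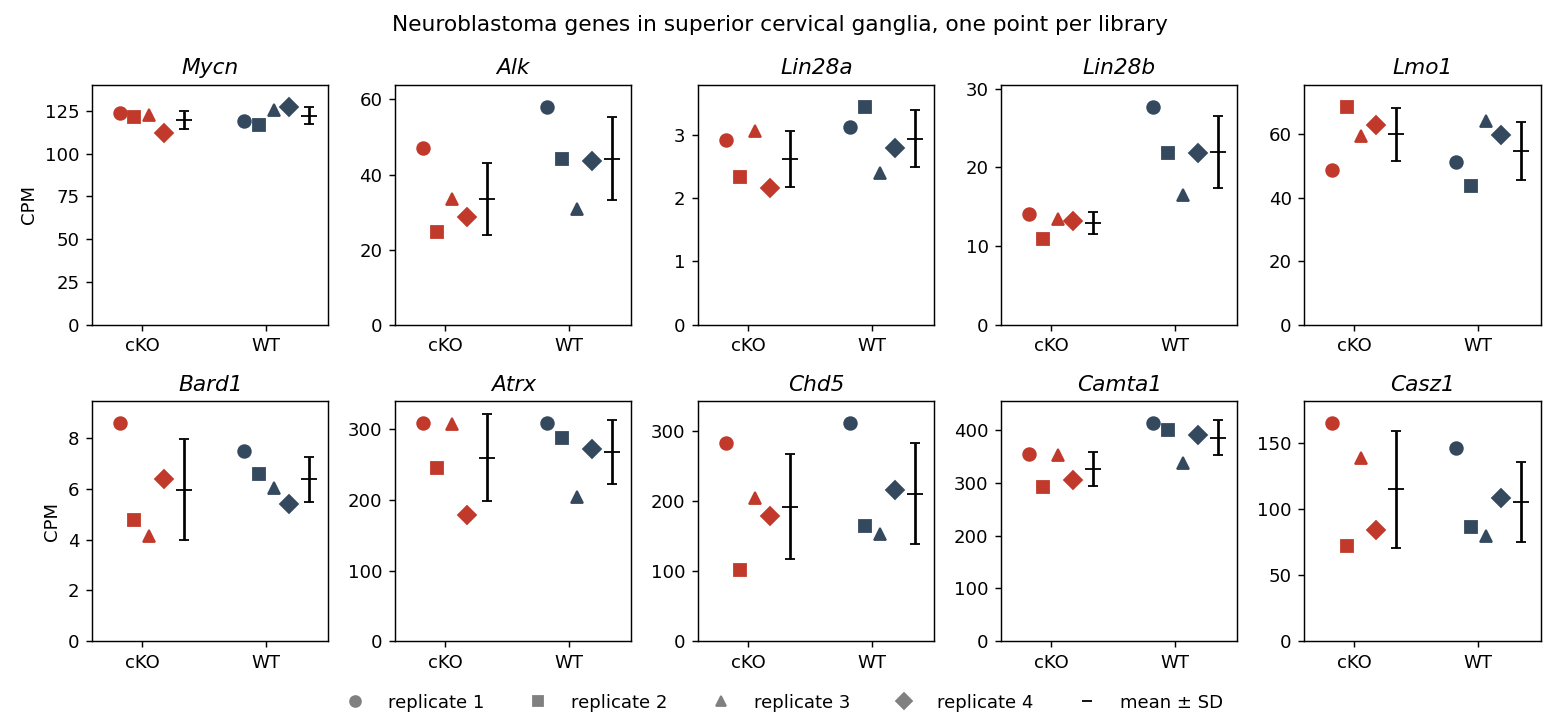
CPM of each of the 10 genes in the 4 cKO and 4 WT libraries, with the marker shape giving the replicate number and the bar the mean ± SD; each axis starts at 0. Lin28b is the panel in which all cKO libraries, at most 14.1 CPM, lie below all WT libraries, at least 16.6 CPM.

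Mycn was steady across the libraries. Mycn (chromosome 12, 12936093 to 12941914, minus strand) had 123, 121, 122 and 112 CPM in cKO replicates 1 to 4, against 119, 117, 126 and 127 CPM in WT replicates 1 to 4. The groups overlapped, and the spread between replicates was 4.46% of the mean in cKO and 4.18% in WT ganglia, the smallest among the 10 genes in both groups. The log2 fold change was -0.03 (SE 0.09, edgeR adjusted p = 0.927). Its 95% interval of -0.22 to 0.16 leaves room for a level between 0.858 and 1.12 times that of WT ganglia. The sign turned positive under other scaling, at 0.02 with library size alone and 0.16 per noradrenergic marker sum.

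Alk (chromosome 17, 71868972 to 72604627, minus strand) had 47.0, 24.7, 33.4 and 28.7 CPM in cKO libraries, against 58.1, 44.3, 30.9 and 43.6 CPM in WT libraries. Replicate 1 was highest in both groups, and cKO 1 and cKO 3 lay above the lowest WT library. The log2 fold change was -0.40 (SE 0.22, 95% interval -0.90 to 0.09, edgeR adjusted p = 0.421), so Alk did not pass. Alk averaged 33.5 ± 9.69 CPM in cKO ganglia and 44.2 ± 11.1 CPM in WT ganglia (SD, n = 4 each), and the groups overlapped.

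Lmo1 (chromosome 7, 109138572 to 109175207, minus strand) had 48.9, 68.7, 59.4 and 62.8 CPM in cKO libraries, against 51.3, 43.8, 64.3 and 59.8 CPM in WT libraries. The ranges overlapped over most of their width, with a log2 fold change of 0.13 (SE 0.14, 95% interval -0.19 to 0.45, edgeR adjusted p = 0.75). Lmo1 was lowest in cKO 1, the cKO library in which Alk was highest.

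Bard1 (chromosome 1, 71027498 to 71103146, minus strand) had 8.57, 4.78, 4.14 and 6.37 CPM in cKO libraries, against 7.48, 6.58, 6.01 and 5.41 CPM in WT libraries. The WT range lay inside the cKO range, and the log2 fold change was -0.09 (SE 0.23, 95% interval -0.60 to 0.41, edgeR adjusted p = 0.909). Atrx (chromosome X, 105797615 to 105929403, minus strand) had 308, 245, 307 and 179 CPM in cKO libraries, against 308, 288, 204 and 272 CPM in WT libraries. The groups overlapped, with a log2 fold change of -0.04 (SE 0.18, 95% interval -0.45 to 0.37, edgeR adjusted p = 0.952) whose sign was positive without WT 1 (0.02) or cKO 4 (0.10). For neither gene did the means differ by more than the replicate spread.

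Camta1, a calmodulin-binding transcription activator (chromosome 4, 150917322 to 151861876, minus strand), had 354, 291, 352 and 305 CPM in cKO libraries, against 412, 399.7, 338 and 391 CPM in WT libraries. Of the WT libraries, WT 3 lay within the cKO range and the other 3 above it. The log2 fold change was -0.24 (SE 0.11, 95% interval -0.48 to -0.01), with an unadjusted p of 0.0436 and an adjusted p of 0.278 in edgeR, so Camta1 did not pass. An unadjusted p below 0.05 was seen in 16.8% of all tested genes, and per noradrenergic marker sum the log2 difference of Camta1 was -0.06.

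Chd5, a chromatin remodeller with high expression in neurons (chromosome 4, 152338651 to 152390194, plus strand), had 283, 101, 205 and 179.8 CPM in cKO libraries, against 312, 165, 153 and 216 CPM in WT libraries. Replicate 1 was highest in both groups, and the spread of 39.0% in cKO and 34.2% in WT ganglia was the largest of the 10 genes in each group. Its log2 fold change was -0.14 (SE 0.30, 95% interval -0.80 to 0.53, edgeR adjusted p = 0.897). The sign of this value was positive without WT 1 (0.11) or cKO 2 (0.08).

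Casz1, a zinc finger transcription factor (chromosome 4, 148804429 to 148954889, plus strand), had 165, 72.1, 139 and 84.4 CPM in cKO libraries, against 147, 86.8, 79.5 and 109 CPM in WT libraries. The groups overlapped, with a log2 fold change of 0.13 (SE 0.27, 95% interval -0.48 to 0.73, edgeR adjusted p = 0.893), and the value was -0.11 without cKO 1. Noncoding genes on the opposite strand share 122 exon bases with Casz1 (Gm13205) and 101 with Chd5 (Gm13645). Per3, Vamp3 and Uts2 lie within Camta1 and Tnfrsf9 overlaps its end, none of them sharing exon bases with it. Vamp3 was at -0.03 (SE 0.13) and Per3 at 0.12 (SE 0.16) on the log2 scale, and Tnfrsf9 and Uts2 were too low to be tested.

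**Figure D2:**
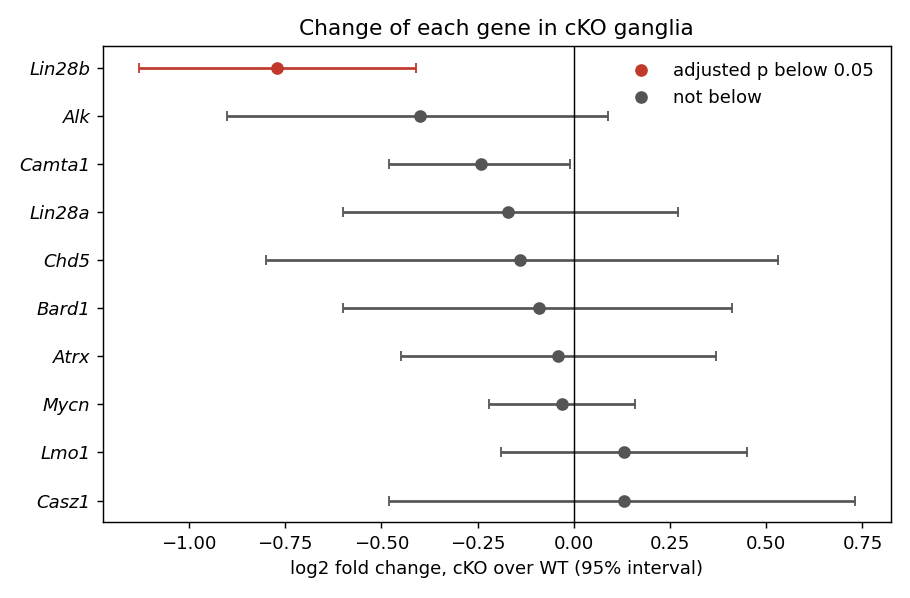
Log2 fold change of each gene in cKO over WT ganglia, with its 95% interval from edgeR's quasi-likelihood fit; red marks an adjusted p below 0.05. Lin28b lies at -0.77, the interval of Mycn from -0.22 to 0.16 is the narrowest, and that of Chd5 from -0.80 to 0.53 the widest.

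Levels were compared between genes per kilobase of exon, the union of all annotated exons of a gene. Mycn averaged 36.3 ± 1.62 CPM per kb in cKO and 37.1 ± 1.55 in WT ganglia, and Lmo1 38.6 ± 5.36 in cKO and 35.3 ± 5.85 in WT ganglia (SD, n = 4 each). In WT ganglia these levels stood at percentiles 90.8 and 90.3 of 14464 genes with a length. Camta1 followed with 22.3 ± 2.21 CPM per kb in cKO and 26.4 ± 2.26 in WT ganglia, and Chd5 with 20.1 ± 7.83 in cKO and 22.0 ± 7.55 in WT ganglia. Over the WT libraries each of these 4 genes overlapped the next, while every Mycn library (at least 35.4 CPM per kb) lay above every library of Camta1 (at most 28.3) and Chd5 (at most 32.5).

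Atrx, Casz1 and Alk formed a middle group, with 12.3, 8.62 and 5.70 CPM per kb in WT ganglia, and again each overlapped the next. Lin28b (1.42 ± 0.154 CPM per kb in cKO and 2.42 ± 0.503 in WT ganglia), Bard1 (1.05 ± 0.349 and 1.13 ± 0.155) and Lin28a (0.655 ± 0.110 and 0.737 ± 0.112) came last (SD, n = 4 each, cKO before WT). In WT libraries the ranges of these 3 genes were apart from each other. In cKO libraries the levels of Lin28b and Bard1 overlapped. With the longest transcript as the length, WT levels of Camta1 (45.1) and Atrx (26.1) moved above those of Lmo1 (42.7) and Chd5 (22.3), all in CPM per kb. Mycn averaged 45.7 CPM per kb in WT ganglia with that length, so its lead over Camta1 nearly closed.

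**Figure D3:**
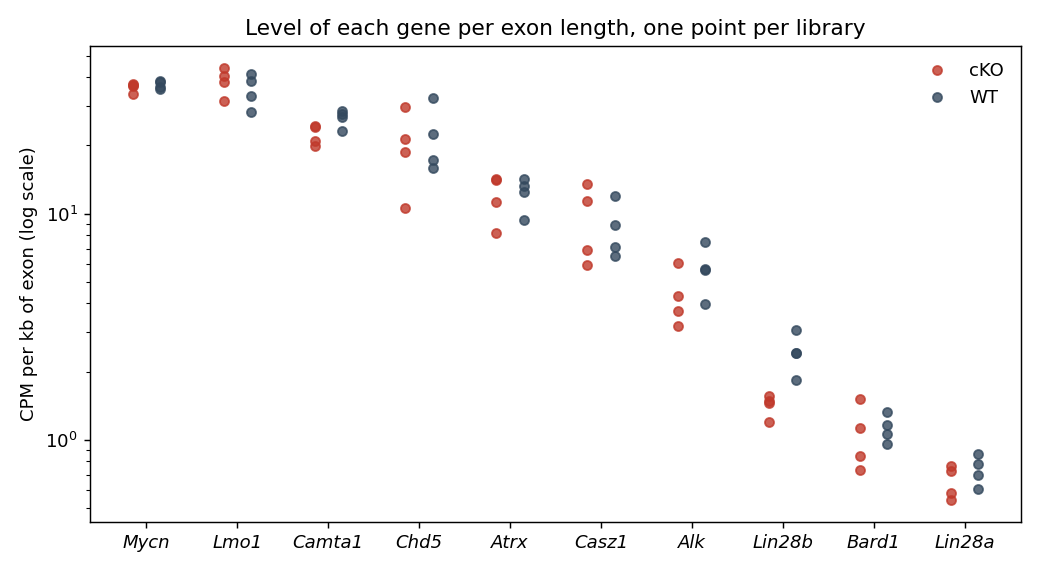
CPM per kilobase of union exon length for each gene, on a log axis, with 1 point per library and cKO to the left of WT, ordered by the WT mean. Mycn and Lmo1 are at the top at 37.1 and 35.3 CPM per kb in WT ganglia, and Lin28a is lowest at 0.737.

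Several of these genes were high or low in the same libraries. Alk, Chd5 and Casz1 were highest in cKO 1 among the cKO libraries and in WT 1 among the WT libraries, and lowest in cKO 2. The same libraries differed over all genes by exon length. The median log2 deviation from the group mean of the 3617 tested genes with at least 6848 exon bases, minus that of the 3619 with at most 2800, was 0.33 in cKO 1 and 0.17 in cKO 3, and 0.22 in WT 1 and 0.13 in WT 2. It was -0.21 in cKO 2 and -0.27 in cKO 4, and -0.04 in WT 4 and -0.30 in WT 3. Alk, Lin28b, Atrx, Chd5, Camta1 and Casz1 are among the long genes by this measure, and Lmo1, with 1552 exon bases, is among the short ones. The part of this library difference in the members' spread was not tested. Between the groups, the long and the short genes had median log2 fold changes of -0.046 and 0.0402.

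The genes that varied most like a member within the groups were named by Pearson's r of log2 CPM over the 8 libraries after subtraction of each group mean, given as a description with no test. The points share the library differences in exon length described above, and 11256 genes were ranked for each member (11257 for Lin28a). For Lin28b they were Slc22a21 (r = 0.982), Mpped1 (0.976) and Ppard (0.972), and for Alk they were Thsd7a (0.994), Pcdhga5 (0.991) and AU040320 (0.987). Mycn had the weakest leaders, Tmem181b-ps (0.947), Igfbpl1 (0.916) and Dock9 (0.909), the last at 0.705 without replicate 4 of both groups. Lmo1 was followed by Rplp0 (0.989), H3f3a (0.979) and Eif6 (0.975), which encode a ribosomal protein, a histone and a ribosome assembly factor. The leaders were Fcho1, Tbc1d16 and Tnpo2 for Chd5 (0.996 each), Adar, Zzef1 and Slc7a1 for Camta1 (0.991 to 0.996), Tet3, Pou2f2 and Bsn for Casz1 (0.995 to 0.997), and Clock, Mga and Nrp1 for Atrx (0.995 to 0.998). Usp32, Odf2 and Arfgef1 led for Lin28a (0.991 to 0.995), and Ucp1, Gpt and Atp2b4 for Bard1 (0.945 to 0.954).

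Genes around each member were then counted in lists written with earlier results of these data known. Among 34 tested let-7 targets and let-7 processing genes, Igf2bp2, an mRNA-binding protein of fetal tissue, and Ccnd1, cyclin D1, rose, and 32 did not pass. Igf2bp2 had 34.6, 35.5, 37.9 and 28.0 CPM in cKO libraries, against 24.0, 22.4, 20.7 and 19.3 CPM in WT libraries (log2 fold change 0.65, SE 0.12, adjusted p = 0.0244 in edgeR). Every cKO library lay above every WT library. Ccnd1 averaged 781 ± 181 CPM in cKO and 387 ± 117 CPM in WT ganglia (SD, n = 4 each), a log2 fold change of 1.01 (SE 0.21). Both calls were lost without WT 2, WT 3, WT 4, cKO 1, cKO 2 or cKO 3, with log2 fold changes from 0.59 to 0.67 for Igf2bp2 and from 0.85 to 1.09 for Ccnd1. The median of the list was 0.03, and 16 of its members had negative and 18 positive values.

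Over the whole table, 1251 tested genes had a CTACCTC match in the 3′ UTR. Of these, 20 rose and 16 fell, or 2.88% called, beside 2.86% of the 11795 genes with no match. Their median log2 fold change was -0.04, against 0.00 without a match, and their median UTR length was 2301 bases, against 972. Mature let-7 was not measured by sequencing of polyadenylated RNA: the 12 rows named for let-7 or miR-98 precursors held at most 6 counts in any library.

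None of the 19 tested genes of the MYC and MAX network passed in edgeR. At an unadjusted p below 0.05 there were 2, and the Wald test of DESeq2 and limma voom called 1 each. Over all tested genes, 2457 of 14592 (16.8%) had an unadjusted p below 0.05 in edgeR. DESeq2 called 1012 genes and limma voom 1539. Such counts in this and the later lists are to be read beside these all-gene figures. Log2 fold changes were 0.36 (SE 0.11) for Mxi1 and 0.36 (SE 0.15) for Mxd4, which are antagonists of MYC. Among 38 MYC target genes Mcm7, a subunit of the replication helicase, rose and Abcc4, a drug and prostanoid exporter, fell. Mcm7 averaged 37.7 ± 2.07 CPM in cKO and 23.6 ± 2.12 CPM in WT ganglia (SD, n = 4 each; log2 fold change 0.67, SE 0.10, edgeR adjusted p = 0.011). Abcc4 had a log2 fold change of -0.46 (SE 0.10). The Mcm7 call was lost without WT 4 (0.68) and that of Abcc4 without any 1 library (-0.51 to -0.40). The median of the targets was 0.10, with 26 positive and 12 negative values.

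Of 28 tested genes of ALK signalling 1 rose and none fell. This was Mdk, midkine, a secreted growth factor that has been proposed as an ALK ligand. It had 50.0, 70.3, 51.0 and 71.9 CPM in cKO libraries, against 27.3, 32.4, 35.2 and 32.4 CPM in WT libraries, so that the groups were well apart. The log2 fold change was 0.93 (SE 0.15, edgeR adjusted p = 0.012), and the call was lost without WT 2 or WT 4 (0.94 in each case). The median of the list was -0.04.

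Of 32 LMO partners and sympathoadrenal transcription factors 2 rose, with a list median of 0.07. Ebf3, an early B cell factor family member, had 13.9, 13.6, 19.0 and 19.3 CPM in cKO libraries, against 7.48, 5.20, 6.93 and 8.45 CPM in WT libraries (log2 fold change 1.23, SE 0.19, edgeR adjusted p = 0.00902). The groups did not overlap, and the call held with each 1 library left out and was lost without replicate 4 of both groups (1.24). Ldb2, a partner of LIM domain proteins such as LMO1 and also expressed in vessels, had a log2 fold change of 0.86 (SE 0.19), a call lost without each library except cKO 1 (0.68 to 0.98).

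In the lists around BARD1, ATRX, CHD5 and CAMTA1, 1 gene passed. It was H3f3b, which encodes the histone variant H3.3 that ATRX deposits, among 27 genes of the ATRX list. H3f3b averaged 509.7 ± 40.6 CPM in cKO and 323 ± 37.6 CPM in WT ganglia (SD, n = 4 each; log2 fold change 0.66, SE 0.11, adjusted p = 0.0151 in edgeR). The call was lost without WT 2 (0.69), WT 4 (0.64) or cKO 3 (0.62). H3f3a, which encodes the same protein, had 0.257 (SE 0.145) and did not pass. Of 26 genes of BRCA1 complexes and recombination none passed in edgeR, with 1 at an unadjusted p below 0.05, 0 in DESeq2 and 1 in limma voom, and the checkpoint kinase gene Chek2 had 0.54 (SE 0.16) and Fam175a, which encodes Abraxas, 0.25 (SE 0.13).

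Of 21 CHD and NuRD genes none passed in edgeR, with 1 at an unadjusted p below 0.05, 0 in DESeq2 and 2 in limma voom, and Cdk2ap1 and Mbd3, NuRD subunits with the smallest p of the list, had values of 0.58 (SE 0.17) and 0.19 (SE 0.10) on the log2 scale. Of 17 CAMTA2 and calmodulin genes none passed in edgeR, with 5 at an unadjusted p below 0.05, 3 in DESeq2 and 5 in limma voom. Over all tested genes the share at an unadjusted p below 0.05 was 16.8%. The kinase genes Camk4 and Camk2b, with the smallest p of the list, had values of -0.60 (SE 0.14) and -0.42 (SE 0.11) on the log2 scale. Other kinase genes of the list lay nearer 0 or above it, among them Camk2a at -0.001, Camk2g at -0.076, Camk1g at -0.091, Camk1d at 0.114 and Camk1 at 0.146. The median of that list was -0.15, with 14 negative and 3 positive values.

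**Figure D4:**
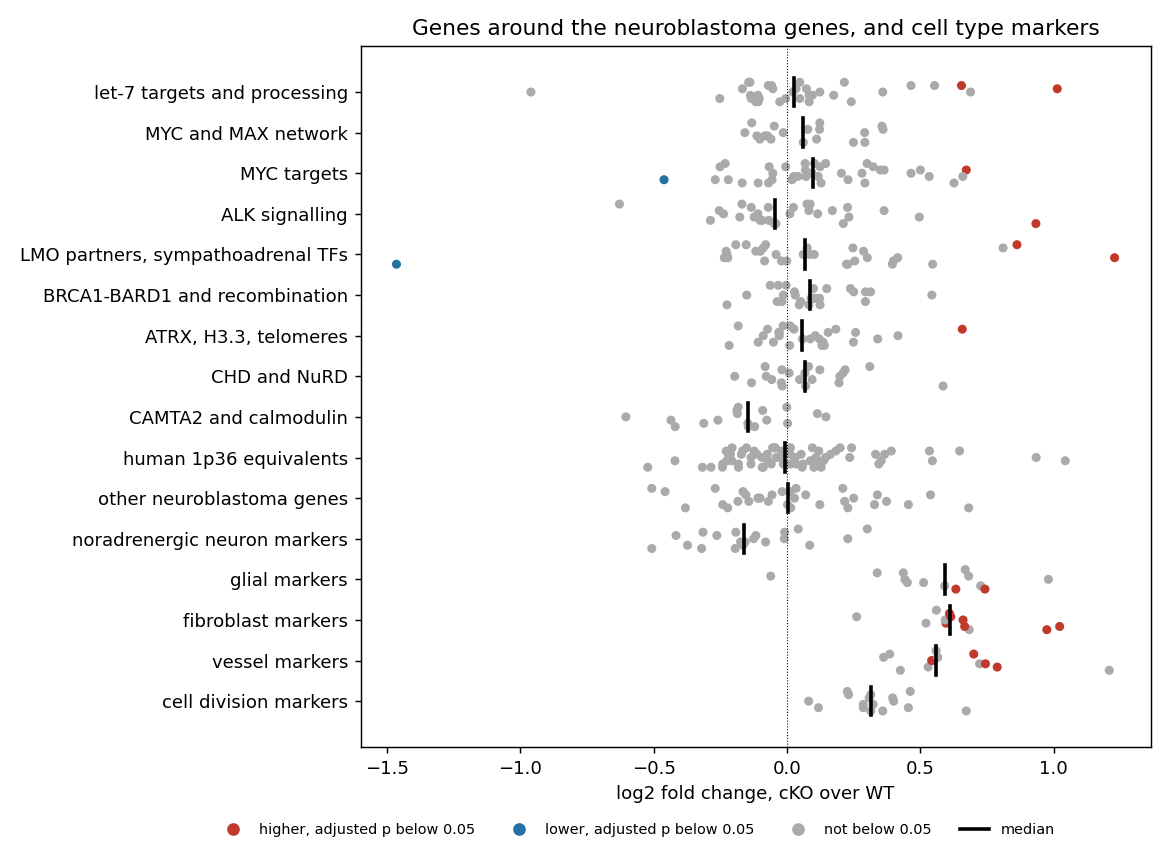
Log2 fold change in cKO over WT ganglia of each tested gene of the lists around the members (upper rows) and of cell type markers (lower rows), with the list median as a bar; red and blue mark an adjusted p below 0.05. The lists around the members have medians between -0.15 and 0.10, and the glial, fibroblast and vessel markers between 0.56 and 0.61.

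No gene passed in edgeR among the 69 tested genes of a list of mouse equivalents of other human 1p36 genes, all on chromosome 4. At an unadjusted p below 0.05 there were 11 of the 69, beside 16.8% of all tested genes. DESeq2 called 2 and limma voom 5 of the list, against 1012 and 1539 over all genes. The median log2 fold change of the 69 genes was -0.01, with 36 negative and 33 positive values. Arhgef16, a guanine nucleotide exchange factor, and Prdm16, a chromatin regulator, had 1.04 (SE 0.25, edgeR adjusted p = 0.0545) and 0.53 (SE 0.15). Within 1 Mb of the Kif1b start, 25 other genes were tested and 1 rose. This was Angptl7, named after its values were seen, with 3.56 ± 0.608 CPM in cKO and 1.09 ± 0.296 CPM in WT ganglia (SD, n = 4 each; log2 fold change 1.70, SE 0.23, edgeR adjusted p = 0.006). Its call held with each 1 library left out. Angptl7 starts at -0.807 Mb, between Mtor (-0.859 Mb) and Srm (-0.716 Mb) of the list, but was not itself listed. The list therefore does not cover every gene of the region. Casz1 is 1 of the 25 genes within 1 Mb, at -0.503 Mb from the Kif1b start, while Camta1 and Chd5 start at 2.55 and 3.03 Mb from it. Lin28a, also on chromosome 4, starts at -15.289 Mb, near Arid1a of the list (-15.551 Mb).

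**Figure D5:**
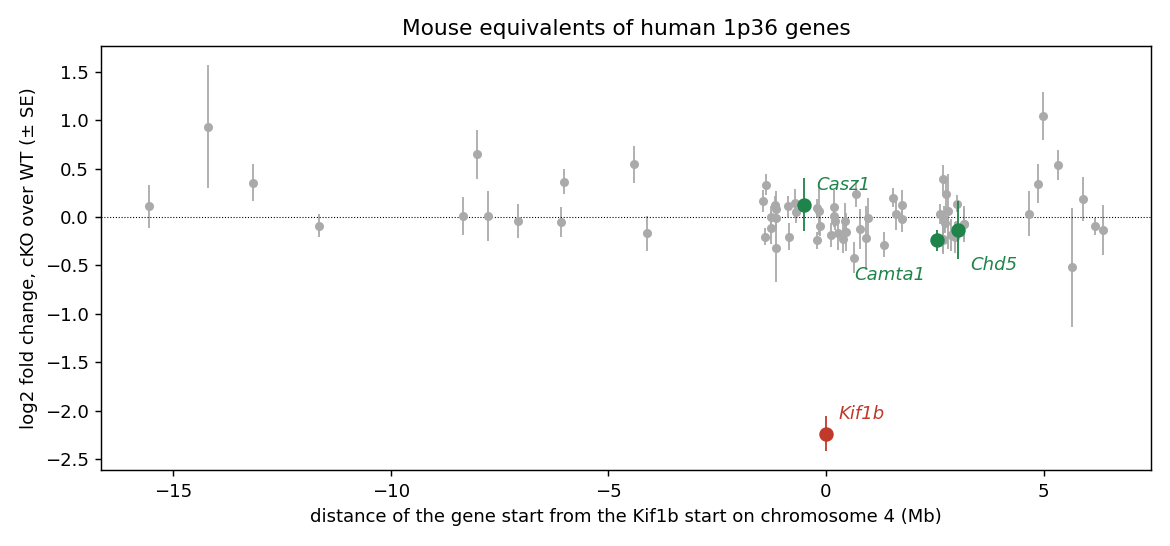
Log2 fold change ± SE of Kif1b, Casz1, Camta1, Chd5 and the 69 listed mouse equivalents of other human 1p36 genes. The horizontal axis gives the distance of each gene start from the Kif1b start on chromosome 4, in Mb. Green marks Casz1, Camta1 and Chd5, and Lin28a and Angptl7 are not drawn. Kif1b lies at -2.24, and the 69 listed genes show a median of -0.01.

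Of 33 other neuroblastoma genes none passed in edgeR, with 8 at an unadjusted p below 0.05, 1 in DESeq2 and 2 in limma voom. An unadjusted p below 0.05 was seen in 16.8% of all tested genes. Slc6a2, the noradrenaline transporter used for imaging of the tumour, had -0.51 on the log2 scale (SE 0.12, adjusted p = 0.0545 in edgeR), and Birc5, an inhibitor of apoptosis, 0.45 (SE 0.15). The median of this list was 0.00.

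Markers of cell types differed between the same libraries and are given as measured. None of 20 noradrenergic markers passed in edgeR, with 6 at an unadjusted p below 0.05, 2 in DESeq2 and 4 in limma voom. For these and the markers below, the all-gene share at an unadjusted p below 0.05 was 16.8%. On the log2 scale Th was at -0.12 (SE 0.09), Dbh at -0.19 (SE 0.09) and Prph at -0.42 (SE 0.10). Fibroblast markers summed to between 8439 and 12345 CPM in cKO and between 6103 and 7804 CPM in WT libraries, and 7 of 12 rose, among them Ogn, Pdgfra, Prrx1 and Fbn1 (log2 fold changes 0.61 to 1.02). Vessel markers summed to between 482 and 575 CPM in cKO and between 304 and 365 CPM in WT libraries, and 4 of 13 rose (Pecam1, Pdgfrb, Notch3 and Tek, 0.54 to 0.79). Glial markers summed to between 3149 and 3669 CPM in cKO and between 2075 and 2674 CPM in WT libraries, and 2 of 13 rose (Mbp and Apoe, 0.74 and 0.63).

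With 1 library left out, between 2 and 7 fibroblast, 0 and 6 vessel and 0 and 5 glial markers passed. No marker at 0 counts was found in these lists. Of 16 cell division markers none passed in edgeR, with 4 at an unadjusted p below 0.05 and 0 in DESeq2 and limma voom. All 16 had positive log2 fold changes (median 0.31), with sums between 385 and 559 CPM in cKO and between 280 and 454 CPM in WT libraries. Mki67 and Rrm2 had 0.31 (SE 0.16) and 0.67 (SE 0.23). Their part in the values of Mycn, Bard1, Mcm7 and Ccnd1 was not tested.

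None of 12 macrophage markers passed in edgeR, with 1 at an unadjusted p below 0.05, 0 in DESeq2 and 2 in limma voom. The list median was 0.17 on the log2 scale, with 11 positive values and 1 negative. Ptprc at 0.35 (SE 0.15) and C1qa at 0.37 (SE 0.22) were the highest of the list. Macrophage sums overlapped, at 232 to 369 CPM in cKO and 195 to 303 CPM in WT libraries. Of 8 genes listed as chromaffin and glomus cell markers Cox4i2 (1.38, SE 0.22) and Ndufa4l2 (1.24, SE 0.22) rose and Olfr78 (-0.69, SE 0.10) fell. The first 2 calls were lost without WT 2 or WT 4 (1.27 to 1.36). The other 5 did not pass and had no common direction: Epas1 was at 0.79, Kcnk3 at 0.689, Chga at 0.477, Pnmt at 0.03 and Chgb at -0.242. A bulk library does not show which cells the RNA of these 8 genes came from. Muscle and cartilage markers summed to 215 CPM in cKO 1 and 81.1 CPM in WT 1, and to at most 24.5 CPM in the other cKO and 24.97 CPM in the other WT libraries. None of the 8 tested passed in edgeR, 0 had an unadjusted p below 0.05, and DESeq2 and limma voom called 0, with Mylpf at 1.44 (SE 1.00) and Col9a1 at 0.59 (SE 0.27). Sensory neuron markers summed to 203 CPM in cKO 4 and 90.9 CPM in WT 4, and at most 66.3 CPM in the other cKO and 63.3 CPM in the other WT libraries. Of the 7 tested, Ntrk3 rose (0.50, SE 0.11), a call lost without each library except WT 1.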

How the data were processed

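The authors deposited whole-number read counts per gene symbol, 1 column per animal, from TruSeq v2 libraries per the labels' protocols and STAR alignments to mm10 per the submitters' processing notes. No source used here names the counting program, annotation or strand setting. Columns were matched to libraries by sample title. The main test was the robust quasi-likelihood fit of edgeR 4.0.16 (R 4.3.3) with TMM scaling, the filterByExpr filter and no covariate, with p-values adjusted by Benjamini-Hochberg over 14592 genes and a threshold of 0.05. Intervals are 95%. Alternatives were DESeq2 1.42.0, limma 3.58.1 (voom with sample weights), other scalings and filters, a replicate block and libraries left out. The log2 CPM used a prior count of 2. Library totals of 16214912 to 18114418 counts limit the precision of Lin28a and Bard1 most. No library duplicated another (chi-square per gene from 8 to 58.6). The steps were tested on simulated counts.

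The members and lists were chosen with earlier results of these data known. The named genes were the members and Kif1b, up to 4 passing genes of each list or the 2 with the smallest p, the 3 genes most like each member at a mean of 5 CPM or more, genes overlapping a member, and Th, Dbh and Mki67. Angptl7 was chosen after its values were seen. A gene that the rule takes is not reported here, though counts over all genes include it. Lengths and coordinates come from GENCODE vM21, matched to 21509 of 23351 distinct names by symbol and 1400 by an older symbol. Figures were drawn with matplotlib 3.10.9.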

Additional observations from a re-analysis of the deposited data

Results flagged for a closer look

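Among the named genes, 13 groups of 4 libraries had 1 library far from the other 3, out of 178 groups looked at, where chance gives about 1 in 20. None was a group of the 10 neuroblastoma genes. Single high libraries were seen for Mcm7 in cKO 2 (40.8 CPM, the others 36.4 to 36.8), Notch3 in cKO 1 (59.7 CPM, the others 42.1 to 43.7), Mbp in WT 1 (108 CPM, the others 82.8 to 86.1) and Pecam1 in WT 1 (47.2 CPM, the others 41.2 to 41.7). Angptl7 was high in WT 1 (1.53 CPM, the others 0.912 to 0.974), and Ucp1, which varied like Bard1, in cKO 1 (18.0 CPM, the others 1.08 to 2.81). Mylpf was high in cKO 1 (25.4 CPM, the others 1.31 to 1.67) and in WT 1 (6.50 CPM, the others 1.13 to 1.66). Uts2 had a count in WT 4 alone among WT libraries (0.0608 CPM). Single low libraries were seen for Camk4 in WT 3 (135 CPM, the others 177 to 182), Tek in WT 2 (7.90 CPM, the others 11.1 to 11.3), Rrm2 in WT 1 (12.9 CPM, the others 20.4 to 21.9) and Olfr78 in WT 1 (167 CPM, the others 175 to 176).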

How the results depend on the processing

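The fall of Lin28b kept its direction in every setting tried and its call with the other scalings, filters and tools (log2 fold change -0.77 to -0.72). The call was lost without replicate 1 of both groups (-0.68, edgeR adjusted p = 0.0522) or replicate 4 of both (-0.78, 0.184), when 0 of the 10 genes passed. Per noradrenergic marker sum, a scaling added after the data were seen, the log2 difference was -0.56. No edgeR test was run on that scale. The exact permutation test gave an unadjusted two-sided p of 0.0571, where 0.0286 is the lowest possible. Leaving out 1 library gave 0 to 1 members passing. With 1 library left out, the log2 fold changes ranged from -0.89 to -0.64 for Lin28b, -0.06 to 0.00 for Mycn, -0.16 to 0.10 for Atrx, -0.40 to 0.11 for Chd5, -0.33 to 0.04 for Bard1, -0.11 to 0.32 for Casz1, -0.11 to 0.04 for Vamp3 and -0.92 to 2.32 for Mylpf. Signs also turned with library size alone for Mycn (0.02), Atrx (0.00) and Vamp3 (0.02), in limma voom for Atrx (0.01), without replicate 4 of both groups for Mycn (0.02) and Atrx (0.11), and without replicate 1 of both for Mylpf (-0.03). Per noradrenergic marker sum Mycn was 0.16, Lin28a 0.02, Bard1 0.05, Atrx 0.13 and Chd5 0.02. No cause was tested. Over all genes, calls numbered 1012 in DESeq2 (565 higher, 447 lower in cKO), 1539 in limma voom (883 and 656), 687 with a replicate block (425 and 262), 65 without replicate 4 of both groups (26 and 39) and from 74 to 514 with 1 library left out (33 to 318 higher, 40 to 196 lower). Library size alone gave 343 higher and 145 lower, against 234 and 163. The labels do not say what a shared replicate number means. Deviations of same-numbered libraries correlated at 0.725, 0.352 and 0.265 for numbers 1, 2 and 4 and at -0.302 for number 3, and of the cKO libraries cKO 1 correlated best with its own number and the other 3 did not. Since the correlation was not positive for every number, the libraries were not treated as paired, which does not show that they are unpaired. Muscle and cartilage marker sums were highest in cKO 1 and WT 1, and sensory neuron sums in cKO 4 and WT 4. The difference by exon length had the same sign in both groups for numbers 1 and 4 and opposite signs for numbers 2 and 3. The origin of these shared features was not tested. Lin28b with the replicate block was -0.75 (adjusted p = 0.027). Depth limits Lin28a, with at most 55 counts per library.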
